A study of Mus musculus with 4 samples.

Results

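The retina of Fezf2 knockout (KO) mice was compared with that of control littermates at postnatal day 7 (P7), as the earlier of the 2 ages in a study of what the transcription factor Fezf2 does in retinal development. The comparison consists of 2 of the study's 4 RNA sequencing libraries, 1 KO and 1 control, both chosen by their labels. The control is labelled wildtype and the KO Fezf2KO, with no allele named, and all 4 libraries share the background given as C57/BL/6J and come from whole retina. The other libraries, again 1 KO and 1 control, are from postnatal day 14 (P14), and they share no library with the P7 comparison. The labels do not say how many animals went into a library, their sex, or whether retinas were pooled. Of 22558 gene symbols listed, 12668 were compared at P7, namely those that reached 1 FPKM (read counts scaled for the length of the transcript and the depth of the library) in either library and are not small RNAs or loci under 300 bases. With 1 library per group there is no replicate and no test. Differences are given as log2 of (KO FPKM + 1) over (control FPKM + 1), which understates the change of genes with low levels, and they are called beyond counting error where the deposited lower and upper bounds of the libraries do not overlap. Such bounds hold only the error of counting reads, and nothing of the spread between animals or preparations.

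Bipolar cells carry the signal from photoreceptors to ganglion cells. OFF cone bipolar cells receive it through ionotropic glutamate receptors, while ON cone bipolar and rod bipolar cells receive it through the metabotropic receptor mGluR6 and the channel TRPM1. Bipolar cells, Müller glia and late rods are the last retinal classes to be born, and in the mouse retina P7 falls in the phase when they differentiate and form synapses, before the eyes open. Fezf2 encodes a zinc-finger repressor that is best known for specifying the deep-layer neurons of the cerebral cortex that project to the spinal cord.

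Fezf2 itself, annotated in the mm9 build at chr14:13174406-13178379, stood at 8.32 FPKM in control retina (bounds 7.00 to 8.85) and at 0.592 FPKM in KO (0.378 to 0.792), so the libraries matched their labels. KO retina thus had 7.12% of the control amount, a log2 difference of -2.55. The labels do not say which part of the gene was removed, so the residual reads cannot be placed. Its paralog Fezf1 was below the level compared, at 0.295 FPKM in KO and 0.697 FPKM in control retina. At P14 Fezf2 was listed at 0.126 FPKM in KO and 4.02 FPKM in control retina.

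The promoters of Fezf2 and of 2 genes with higher levels in the KO, the OFF bipolar factor Vsx1 and the cone opsin gene Opn1sw, are shown as the 250 bases before the annotated start. They are RefSeq sequences of the GRCm38.p6 build, at chr14:12345866-12346115, chr2:150689138-150689387 and chr6:29380514-29380763, each read 5′ to 3′ on the minus strand. Capitals mark TAATC or its reverse complement GATTA, the core that homeodomain factors of the Otx and Crx type bind.
Fezf2: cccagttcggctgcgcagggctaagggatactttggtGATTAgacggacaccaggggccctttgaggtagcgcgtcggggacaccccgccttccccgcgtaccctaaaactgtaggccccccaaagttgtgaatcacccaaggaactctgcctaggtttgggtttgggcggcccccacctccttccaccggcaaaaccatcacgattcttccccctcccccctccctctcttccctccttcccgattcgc
Vsx1: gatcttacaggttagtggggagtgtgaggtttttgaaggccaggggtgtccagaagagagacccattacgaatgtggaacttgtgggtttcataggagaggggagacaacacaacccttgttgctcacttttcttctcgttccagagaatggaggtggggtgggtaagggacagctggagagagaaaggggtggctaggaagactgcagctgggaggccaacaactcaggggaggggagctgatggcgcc
Opn1sw: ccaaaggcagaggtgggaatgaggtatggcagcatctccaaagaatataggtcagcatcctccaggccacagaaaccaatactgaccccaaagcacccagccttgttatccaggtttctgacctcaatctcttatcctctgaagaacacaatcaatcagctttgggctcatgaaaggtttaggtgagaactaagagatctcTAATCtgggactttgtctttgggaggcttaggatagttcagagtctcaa
The Fezf2 and Opn1sw windows held 1 match each, and the Vsx1 window held 0. Among all 27025 promoter windows of this length, 20.2% held a match on either strand. Windows were available for 13 OFF cone bipolar genes, of which 0 held a match, for 7 cone phototransduction genes, of which 3 did (42.9%), and for 10 rod phototransduction genes, of which 6 did (60%). Of the ON cone bipolar genes 3 of 12 (25%) and of the horizontal cell genes 1 of 5 (20%) held a match. These counts describe letters in a window and say nothing about binding.

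Few genes differed much between KO and control at P7. At least 2-fold higher in the KO were 15 genes (0.118% of those compared) and 2-fold lower were 21 (0.166%), and 48 (0.379%) and 78 (0.616%) were at least 1.5-fold higher and lower, 0.995% in all. The 2-fold rule called 0.284% in all. Pearson's r of the log2 levels across genes, which are not independent replicates, was 0.993, and 99.0% of genes lay within 1.5-fold. Beyond counting error 930 genes (7.34%) were higher and 773 (6.1%) lower, 13.4% in either direction. Rescaling each library to the same total moved every KO to control ratio by -0.044 on the log2 scale and let 14160 genes pass the filter. The split beyond counting error was then 515 higher and 1239 lower, 46 and 62 genes were 2-fold higher and lower, and 124 and 258 were 1.5-fold higher and lower. With small RNAs and short loci kept, 54 and 98 were 2-fold higher and lower and 93 and 161 were 1.5-fold. Most of these differences were small and followed the level of the gene. The median log2 difference was -0.05 for the 1367 genes with a mean under 2 FPKM and 0.08 for the 583 genes at 100 FPKM or more, against 0.007 over all genes. In the latter bin 83.0% of genes were higher in the KO and 40.7% were beyond counting error, and the part of this slope in the results below was not tested. At the edge of the 2-fold line, Gja1 (1.06) lay just inside and Crybb2 (0.97) just outside among genes higher in the KO, and Chchd8 (-1.01) and 2810403A07Rik (-0.98) among those lower.

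**Figure D1:**
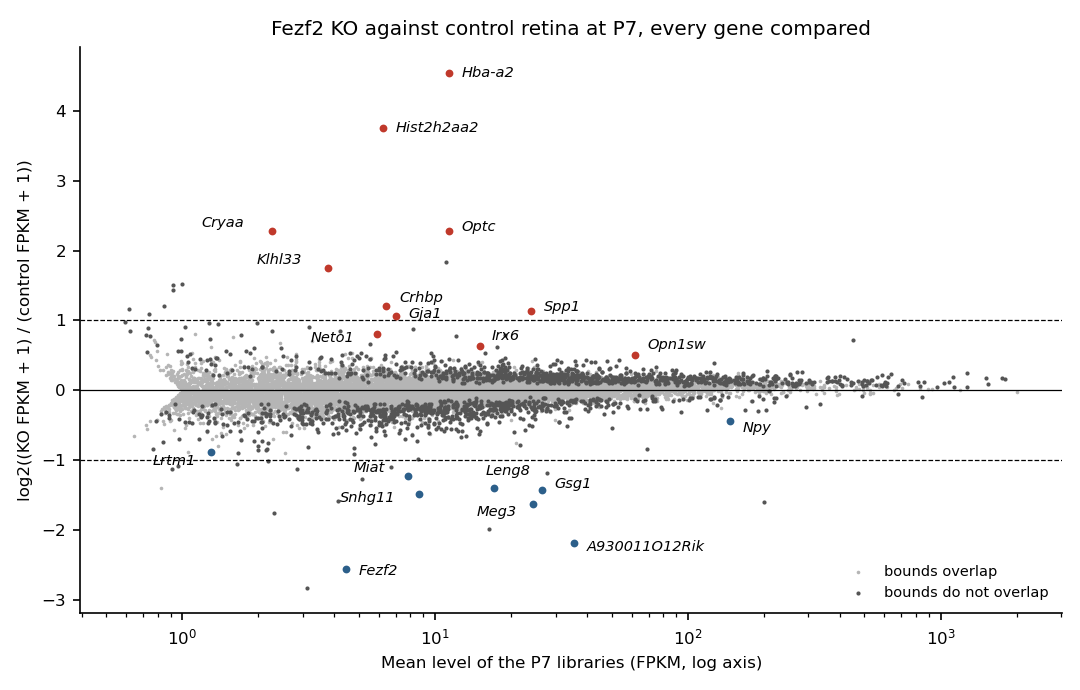
Each point is 1 of 12668 genes, with the mean FPKM of the P7 libraries on a log axis and the log2 difference of KO and control on the vertical axis. Dark points have bounds that do not overlap, dashed lines mark 2-fold, and labelled genes are red where higher and blue where lower in the KO. Fezf2 lies at -2.55, and the points labelled Hba-a2 and Hist2h2aa2 belong to genes with near-identical copies.

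Of 19 listed genes of OFF cone bipolar cells, 12 were higher and 7 lower in the KO at P7. Over all genes 52.3% were higher and 47.7% lower. The list had a median log2 difference of 0.18 against 0.007 over all genes. Beyond counting error 6 were higher and 2 lower, where 13.4% of all genes were beyond it in either direction. Of its transcription factors 4 were higher beyond counting error. Irx6, an Iroquois homeodomain factor of OFF cone bipolar cells, stood at 18.5 FPKM in KO and 11.6 FPKM in control retina (0.63). Vsx1, the homeodomain factor needed for OFF cone bipolar differentiation, stood at 45.5 FPKM and 33.3 FPKM (0.44). Lhx3, a LIM-homeodomain factor of the same cells, stood at 20.4 FPKM and 16.1 FPKM (0.32), and the zinc-finger homeodomain gene Zfhx4 at 10.1 FPKM and 7.45 FPKM (0.39). For each of these 4 factors the lower bound in the KO lay above the upper bound in the control. Irx5 (9.04 FPKM in KO and 7.56 FPKM in control retina) and Bhlhe22, a basic helix-loop-helix factor (23.6 FPKM and 24.5 FPKM), had overlapping bounds.

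The synaptic genes of the same list did not go one way. Neto1, an auxiliary subunit of kainate receptors, stood at 7.78 FPKM in KO (bounds 6.85 to 8.40) and 4.01 FPKM in control retina (3.45 to 4.48), a log2 difference of 0.81. Nxph1, a secreted ligand of neurexins, stood at 11.6 FPKM and 7.73 FPKM (0.53). Both were higher in the KO beyond counting error. Grik1, the kainate receptor subunit through which OFF bipolar cells respond to glutamate, was lower, at 10.9 FPKM in KO and 13.4 FPKM in control retina (-0.28). The protocadherin gene Pcdh10 was also lower, at 22.1 FPKM and 27.0 FPKM (-0.27). The 9 members left, among them Syt2, Tacr3, Hcn4, Erbb4 and Nnat, lay between -0.11 and 0.28 with overlapping bounds.

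ON cone bipolar and rod bipolar genes differed less. Of 14 ON cone bipolar genes compared from 16 listed, 9 were higher and 5 lower, and 3 were higher beyond counting error. Among all genes 52.3% were higher and 47.7% lower, and 7.34% were higher and 6.1% lower beyond counting error. Scgn, which encodes the calcium-binding protein secretagogin, stood at 33.2 FPKM in KO and 25.2 FPKM in control retina (0.38). Gnb3, a G-protein beta subunit shared by ON bipolar cells and cones, stood at 297 FPKM and 246 FPKM (0.27). Isl1, the LIM-homeodomain factor of ON bipolar cells, was at 92.3 FPKM and 88.8 FPKM with overlapping bounds. Of 8 rod bipolar genes, 2 were higher and 6 lower (median -0.06). Prkca, the protein kinase C that marks rod bipolar cells, was slightly higher at 42.5 FPKM in KO and 39.7 FPKM in control retina (0.09), and after rescaling its bounds overlapped. Gabrr1, a subunit of the GABA-C receptor, was lower at 25.1 FPKM and 30.5 FPKM (-0.27). Neurod4, a basic helix-loop-helix factor of bipolar cells, stood at 136 FPKM and 132 FPKM with overlapping bounds.

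Lrtm1 had the lowest log2 difference of all bipolar genes, -0.88, at 0.618 FPKM in KO (0.499 to 0.737) and 1.98 FPKM in control retina (1.76 to 2.21). Its level was far higher at P14, where it stood at 32.8 FPKM and 39.5 FPKM (-0.26). Ccdc136 was higher in the KO at P7, at 34.4 FPKM and 28.5 FPKM (0.26).

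Most genes of the ON bipolar signalling cascade stood lower in the KO at P7, namely 10 of 13, with bounds apart for 4 of these and a median of -0.09. Over all genes 47.7% were lower, and 6.1% were lower beyond counting error. Grm6, which encodes mGluR6, stood at 16.4 FPKM in KO and 19.9 FPKM in control retina (-0.26). Trpm1, the transduction channel, stood at 8.73 FPKM and 10.2 FPKM (-0.20). Gng13, the G-protein gamma subunit of the cascade, stood at 19.8 FPKM and 28.7 FPKM (-0.51), and Gnb5, the beta subunit that pairs with RGS proteins, at 128 FPKM and 141 FPKM (-0.14). Gnb3, described above, was the only member higher beyond counting error. The remaining 8 members, including Nyx, Gpr179 and Lrit3, had overlapping bounds and lay between -0.21 and 0.15. In a bulk library, fewer cells of a type and less RNA per cell cannot be told apart, here or for any cell type below.

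**Figure D2:**
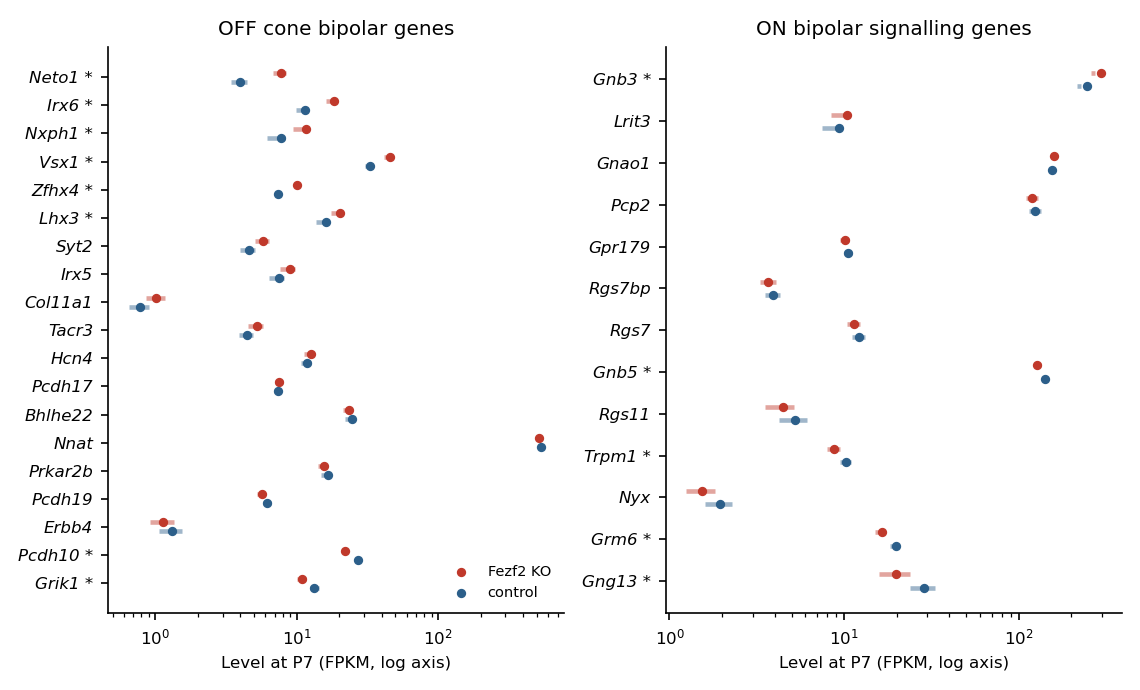
Points show the FPKM of KO (red) and control (blue) at P7 on a log axis, and bars the deposited lower and upper bounds, with an asterisk where the bounds do not overlap. Genes are ordered by log2 difference from Neto1 (0.81) to Grik1 (-0.28) on the left and from Gnb3 (0.27) to Gng13 (-0.51) on the right.

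At P14 the median of the OFF cone bipolar genes had the opposite sign. Of the 17 compared there, 14 were lower in the KO, with bounds apart for 7 and a median of -0.21. Over all 12812 genes compared at P14, 49.2% were lower. Beyond counting error 8.25% were lower, 7.45% higher and 15.7% either. Nxph1 stood at 4.58 FPKM in KO and 7.09 FPKM in control retina at P14, and Neto1 at 3.97 FPKM and 4.80 FPKM with overlapping bounds. Grik1, already lower at P7, stood at 14.6 FPKM and 27.8 FPKM at P14. The transcription factors were near each other at P14, with Vsx1 at 14.3 FPKM and 15.1 FPKM and Irx6 at 11.2 FPKM and 10.1 FPKM. No test of a difference between the ages is possible with 1 library per genotype and age.

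In photoreceptors, genes of cones were more often higher in the KO at P7 and genes of rods went both ways. Of 11 cone phototransduction genes 8 were higher and 3 lower, and the 4 whose bounds stood apart were all higher (median 0.14). The shares of all genes were 52.3% higher and 7.34% higher beyond counting error. Opn1sw, the short-wavelength cone opsin gene whose promoter is printed above, stood at 72.9 FPKM in KO (70.5 to 76.3) and 51.0 FPKM in control retina (48.9 to 53.6), a log2 difference of 0.51. Pde6h, the inhibitory subunit of the cone phosphodiesterase, stood at 144 FPKM and 109 FPKM (0.40), and Pde6c, its catalytic subunit, at 21.1 FPKM and 16.6 FPKM (0.33). Gnb3, which is on this list too, was the fourth. Gnat2, the cone transducin, had overlapping bounds at 28.2 FPKM and 24.1 FPKM, as had the medium-wavelength opsin gene Opn1mw at 2.93 FPKM and 3.70 FPKM. At P14 the cone list had a median of -0.03, and Opn1sw stood at 202 FPKM and 179 FPKM.

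Of 17 rod phototransduction genes, 7 were higher and 10 lower at P7 (median -0.02), with 3 higher and 6 lower beyond counting error. After rescaling these became 2 and 9. As reported, 7.34% of all genes were higher and 6.1% lower beyond counting error, and 52.3% were higher and 47.7% lower at any size. Gnat1, the rod transducin, was lower at 107 FPKM and 130 FPKM (-0.28). Grk1, a kinase that ends the light response, was lower at 28.0 FPKM and 33.4 FPKM (-0.25). Rcvrn, the calcium sensor recoverin, was lower at 207 FPKM and 233 FPKM (-0.17). Sag, which encodes the rod arrestin, was higher at 1198 FPKM and 1045 FPKM (0.20). Of 14 factors that drive photoreceptor genes, 8 were higher and 6 lower (median 0.03, which turned to -0.01 on rescaling), with 4 higher and 1 lower beyond counting error, or 3 and 2 after rescaling. Otx2 (289 FPKM and 261 FPKM, 0.15), Crx (540 FPKM and 502 FPKM, 0.11) and the thyroid hormone receptor gene Thrb (10.3 FPKM and 8.35 FPKM, 0.28) were among the higher, and Samd7 was the lower member (139 FPKM and 149 FPKM, -0.10). Nrl, the determinant of rod fate, stood at 710 FPKM and 693 FPKM with overlapping bounds.

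The guanylate cyclase activating proteins, which restore cyclic GMP after light, went opposite ways. Guca1a was higher in the KO at 61.7 FPKM and 45.2 FPKM (0.44), and Guca1b lower at 4.90 FPKM and 7.09 FPKM (-0.46). Rpgrip1, a scaffold of the connecting cilium, was lower at 27.4 FPKM in KO and 39.3 FPKM in control retina (-0.51), and lower again at P14, at 17.7 FPKM and 33.1 FPKM (-0.87). Among 15 outer segment genes it was the member farthest from 0.

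All 11 horizontal cell genes compared were higher in the KO at P7, where 52.3% of all genes were and 47.7% were lower. Beyond counting error were 6 of them, where 7.34% of all genes were higher beyond it. The median of the list was 0.23, and the 6 were beyond counting error on rescaling too. Onecut1, a transcription factor needed for horizontal cell development, stood at 6.4 FPKM in KO (5.10 to 7.05) and 4.26 FPKM in control retina (3.31 to 4.94), a log2 difference of 0.49. Lhx1, a LIM-homeodomain factor of these cells, stood at 7.54 FPKM and 5.2 FPKM (0.46). Megf11, a receptor in their mosaic spacing, stood at 11.3 FPKM and 8.66 FPKM (0.35). Onecut2 (2.42 FPKM and 1.72 FPKM), Onecut3 (2.07 FPKM and 1.44 FPKM) and the receptor kinase gene Ret (13.5 FPKM and 11.4 FPKM) completed the group beyond counting error. Prox1, a factor that bipolar, AII amacrine and Müller cells also make, stood at 72.7 FPKM and 69.8 FPKM. At P14 9 of 10 were higher, where 50.8% of all genes were, with bounds apart for 4 and a median of 0.18. The 1 lower at P14 was Onecut1 (-0.07), with overlapping bounds.

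Most transmitter genes of amacrine cells that were compared stood lower in the KO while their transcription factors did not go one way. Of 14 transmitter genes compared from 20 listed, 10 were lower (median -0.13), and bounds stood apart for 5 of these and for 1 of the higher genes. By comparison 47.7% of all genes were lower, and 6.1% lower beyond counting error. The vesicular inhibitory amino acid transporter gene Slc32a1 stood at 37.3 FPKM in KO and 43.2 FPKM in control retina (-0.21). The GABA-synthesizing enzyme gene Gad1 stood at 47.1 FPKM and 53.9 FPKM (-0.19). Slc6a9, the glycine transporter gene of glycinergic amacrine cells, stood at 29.2 FPKM and 38.9 FPKM (-0.40). The peptide gene Npy stood at 125 FPKM and 170 FPKM (-0.44). These 4 were lower beyond counting error. Crhbp, which binds corticotropin-releasing hormone, was the exception at 9.37 FPKM in KO (7.50 to 9.75) and 3.49 FPKM in control retina (2.64 to 4.17), a log2 difference of 1.21. Of 10 transcription factor genes 5 were higher and 5 lower (median 0.03, which turned to -0.01 on rescaling). Ebf1 was higher at 11.3 FPKM and 8.70 FPKM (0.34), and Pax6, the master regulator of eye development, lower at 98.6 FPKM and 106 FPKM (-0.11).

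Ganglion cell genes were higher in 13 of 19 cases (median 0.07), with bounds apart for 5, a count that became 2 after rescaling. Across all genes 52.3% were higher, and 7.34% higher beyond counting error. Pou4f1, a POU-homeodomain factor of ganglion cells, stood at 16.2 FPKM in KO and 13.3 FPKM in control retina (0.27), and the neurofilament gene Nefl at 274 FPKM and 235 FPKM (0.23). Müller glia genes were balanced, with 9 of 18 higher and a median of 0.01 that turned to -0.03 on rescaling. Glul, the glial glutamine synthetase, was lower at 169 FPKM and 188 FPKM (-0.15), and Vim, a filament protein of glia, higher at 150 FPKM and 129 FPKM (0.21). Of 17 cell cycle genes 2 were beyond counting error, both lower, which is no larger a share than the 13.4% of all genes. They were Ccna2, encoding cyclin A (2.11 FPKM and 2.99 FPKM), and Rrm2, a subunit of ribonucleotide reductase (0.965 FPKM and 1.72 FPKM). Notch pathway genes were higher in 16 of 21 cases (median 0.06), where 52.3% of all genes were, and the 2 beyond counting error are a smaller share than the 13.4% of all genes, with Notch2 (0.25) and Hes6 (0.19) beyond counting error and, after rescaling, Notch2 alone. Sox4, a factor of immature neurons, stood at 134 FPKM and 112 FPKM (0.26).

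Genes of synapses and wiring had medians close to that of all genes, with large single differences. Of 20 ribbon synapse genes 4 were higher and 4 lower beyond counting error, where 7.34% and 6.1% of all genes were. Among the ribbon synapse genes Cacna1f, the calcium channel of photoreceptor terminals, was lower at 8.13 FPKM and 9.66 FPKM (-0.22). Rims1, a scaffold of the active zone, was higher at 17.1 FPKM and 14.1 FPKM (0.26). Of 18 glutamate receptor and auxiliary genes 2 were higher and 3 lower beyond counting error. Besides Neto1 and Grik1 these were Grid1 (14.8 FPKM and 11.5 FPKM, 0.35), Grik2 (3.91 FPKM and 4.78 FPKM, -0.24) and the AMPA receptor subunit gene Gria2 (7.42 FPKM and 8.78 FPKM, -0.22). Cdh8, a cadherin of OFF bipolar cells among others, was higher at 22.2 FPKM in KO (20.9 to 23.6) and 15.8 FPKM in control retina (14.8 to 16.8), a log2 difference of 0.47. At P14 it stood at 8.24 FPKM and 10.5 FPKM (-0.32). The synaptic organizer gene Lrrtm3 was lower at P7 at 1.56 FPKM and 2.37 FPKM (-0.40).

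Among receptors for GABA and glycine and their chloride transporters, 12 of 20 genes were lower at P7, 3 beyond counting error. These shares over all genes were 47.7% and 6.1%. Glra1, the glycine receptor alpha subunit, stood at 1.27 FPKM in KO (0.796 to 1.71) and 3.06 FPKM in control retina (2.2 to 3.61), a log2 difference of -0.84. The chloride transporters that set the direction of GABA currents went opposite ways. Slc12a2, which brings chloride into cells and is prominent in immature neurons, was higher at 12.9 FPKM and 10.1 FPKM (0.32). Slc12a5, which takes chloride out of mature neurons, was lower at 50.7 FPKM and 57.4 FPKM (-0.18). At P14 19 of 20 genes of this list stood lower, where 49.2% of all genes did. Lower beyond counting error were 11 of them, where 8.25% of all genes were. The list median was -0.28 against -0.03 at P7.

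**Figure D3:**
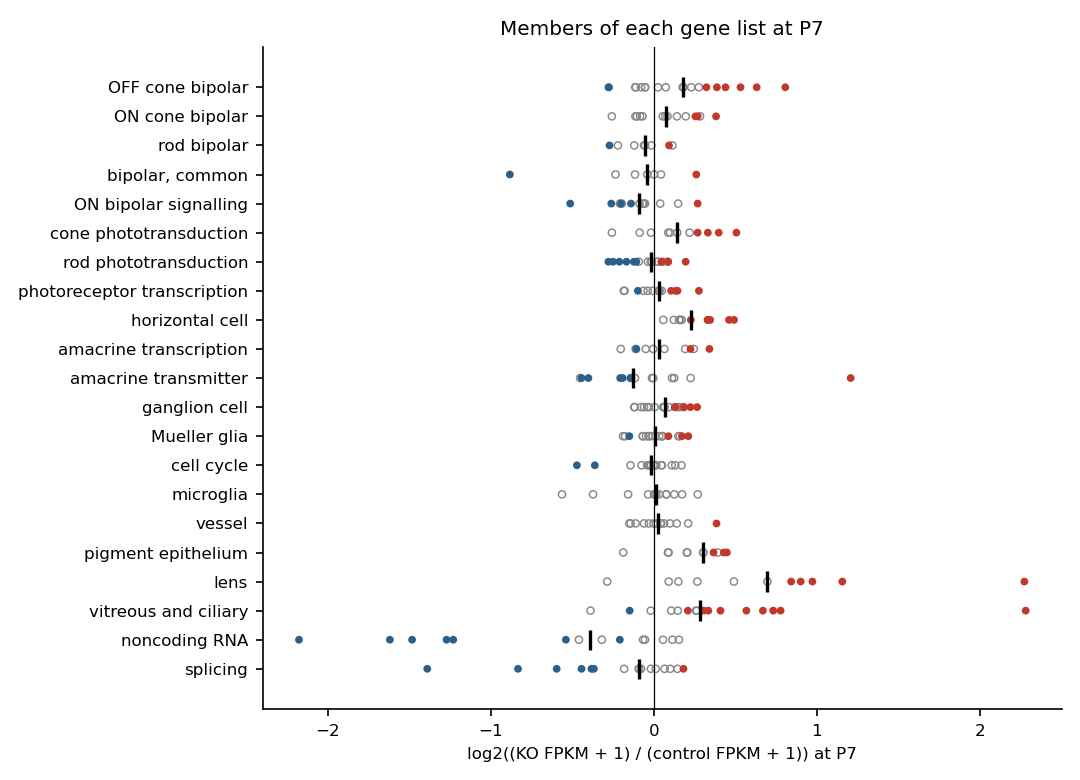
Each point is 1 gene, placed by its log2 difference at P7 and by its list. Filled points have bounds that do not overlap (red higher, blue lower in the KO), open points have overlapping bounds, and black bars mark list medians, which run from -0.39 for noncoding RNA to 0.70 for lens.

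Genes listed for tissues next to the retina were mostly higher in the KO library at P7, and where their RNA was made was not tested. Optc, encoding opticin of the vitreous, had the highest log2 difference after Hba-a2 and Hist2h2aa2, which have copies, at 19.5 FPKM in KO (17.9 to 21.2) and 3.22 FPKM in control retina (2.55 to 3.89), a log2 difference of 2.28. The lens chaperone gene Cryaa stood at 4.43 FPKM and 0.122 FPKM (2.27). Crygs was listed at 1.23 FPKM in KO and at 0 in the control. Of 11 lens genes compared from 14 listed 10 were higher, 5 beyond counting error, where 52.3% and 7.34% of all genes were. Those 5 (Cryaa, Cryba1, Cryba2, Crybb2 and Crygs) were under 1 FPKM in the control and passed the filter only through the KO. Such genes could only come out higher, so these counts cannot be weighed against the shares of all genes. The median of the 11 lens genes was 0.70, but 0.29 with a filter of 5 FPKM, 0.38 without a filter and 1.5 with a pseudocount of 0.1 FPKM. The lens membrane genes Mip and Lim2 and the filament gene Bfsp1 were under 1 FPKM in both libraries. Gamma crystallins, looked at after their values were seen, followed with Crygb at 1.96 FPKM and 0.0328 FPKM (1.52) and Crygc at 1.8 FPKM and 0.0324 FPKM (1.44), though these genes are close copies among which reads may be split. Crystallins made up 11 of the 48 genes at least 1.5-fold higher. All 11 were under 1 FPKM in the control and passed the filter only through the KO, and bounds overlapped for Cryga and Cryba4. The filter and the close copies thus shape this share.

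Of 16 vitreous and ciliary matrix genes compared, 13 were higher in the KO at P7, 9 beyond counting error (median 0.29), against the same 52.3% and 7.34% of all genes. Col18a1, a basement membrane collagen, stood at 15.5 FPKM in KO and 8.62 FPKM in control retina (0.78), and the vitreous collagen gene Col9a1 at 49.2 FPKM and 36.8 FPKM (0.41). The stromal collagen genes Col1a1 and Col3a1 were under 1 FPKM in both libraries. Of 11 pigment epithelium genes 10 were higher, 3 beyond counting error (median 0.30), to be read beside the same shares. Rgr, an opsin of the pigment epithelium and Müller cells, stood at 13.3 FPKM and 9.47 FPKM (0.45), and Dct, an enzyme of melanin synthesis, at 20.8 FPKM and 15.9 FPKM (0.37). Rpe65, the isomerase of the visual cycle, stood at 2.02 FPKM and 1.84 FPKM with overlapping bounds. The summed levels were 143.8 FPKM in KO and 122.8 FPKM in control retina for pigment epithelium, 53.8 FPKM and 39.8 FPKM for lens, and 215 FPKM and 165 FPKM for vitreous and ciliary genes. Of 5 corneal genes 0 reached 1 FPKM.

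At P14 the medians were -0.63 for lens genes (4 of 7 lower, and 0.10 with a filter of 5 FPKM), -0.62 for vitreous and ciliary genes (11 of 14 lower, and -0.29 without a filter) and -0.43 for pigment epithelium genes (11 of 13 lower). Over all genes compared at P14, 49.2% were lower. Cryaa, Cryba1, Cryba4, Fbln1 and Mfap4 passed the P14 filter only through the control, so they could only come out lower. Optc stood at 4.17 FPKM in KO and 39.1 FPKM in control retina at P14, and Cryaa at 0.0779 FPKM and 4.63 FPKM. Gja1, the gap junction protein of astrocytes and ciliary epithelium, was higher at P7 at 9.86 FPKM and 4.21 FPKM (1.06) and lower at P14 at 4.74 FPKM and 7.55 FPKM (-0.57). Spp1, which encodes osteopontin, stood at 33.4 FPKM in KO and 14.7 FPKM in control retina at P7 (1.13). Vessel genes (14 compared, median 0.03) and microglia genes (13 compared, median 0.02, 0 beyond counting error in either direction) were close to all genes, and both medians turned negative on rescaling. Of 5 erythroid genes 5 were higher at P7 (median 0.22), where 52.3% of all genes were. Bounds stood apart at P7 for 1, Hba-a2, which has a copy. Hba-a2 passed the filter only through the KO at P7 and only through the control at P14. At P14 5 were lower (median -1.74), with bounds apart for 5, where 49.2% and 8.25% of all genes were. The summed erythroid levels were 339 FPKM in KO and 291 FPKM in control retina at P7 and 356 FPKM and 1180 FPKM at P14. The part that blood or tissue carried along at dissection plays in the differences between KO and control was not tested.

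**Figure D4:**
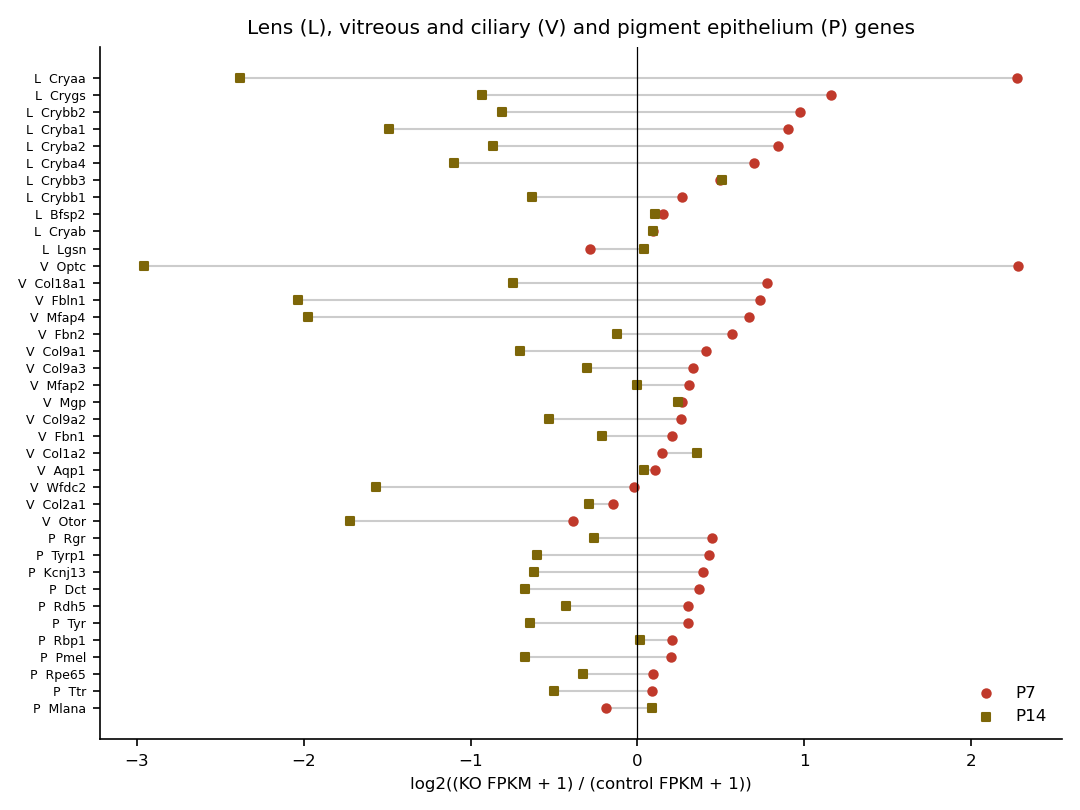
Each row is a gene of the lens (L), vitreous and ciliary (V) or pigment epithelium (P) list, with its log2 difference of KO and control at P7 (circles) and at P14 (squares). Most circles lie right of 0 and most squares left of it, from 2.28 and -2.96 for Optc to values near 0 for Cryab and Aqp1.

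Several noncoding RNAs were far lower in the KO at P7. A930011O12Rik, a long noncoding RNA gene on chromosome 14, stood at 12.2 FPKM in KO (11.4 to 13.1) and 58.8 FPKM in control retina (57.4 to 61.3), a log2 difference of -2.18. Meg3, an imprinted noncoding RNA, stood at 11.4 FPKM and 37.2 FPKM (-1.62). Snhg11 stood at 4.08 FPKM and 13.2 FPKM (-1.48), and Miat, a nuclear RNA of the retina and brain, at 4.25 FPKM and 11.3 FPKM (-1.23). Malat1, an abundant RNA of nuclear speckles, was lower at 11.8 FPKM and 17.6 FPKM (-0.54). Of 14 such genes compared 11 were lower, 7 beyond counting error, where 47.7% and 6.1% of all genes were. Higher beyond it were 0, and the list median was -0.39. By RefSeq gene type, 13 of 235 long noncoding RNA genes (5.53%) were at least 1.5-fold lower, against 63 of 12212 protein-coding genes (0.516%). The 13 include Xist, and bounds overlapped for 0610009L18Rik, 2810008D09Rik and 2810429I04Rik. Lower beyond counting error were 16 and 747 of these, and 10.2% and 13.6% differed beyond it in either direction. The median control level was 3.04 FPKM for these noncoding genes and 11.5 FPKM for coding genes. Genes with a mean under 2 FPKM were 1.5-fold apart in 3.66% of cases, against 0.464% at 10 to 20 FPKM. The part of level in this contrast was not tested. Not all nuclear or noncoding RNAs were lower, with Tug1 at 27.9 FPKM and 28.9 FPKM, H19 at 18.5 FPKM and 16.5 FPKM, and Gas5 at 6.76 FPKM and 7.12 FPKM, all with overlapping bounds.

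Genes of splicing regulators shared this direction in part. Of 16 compared 11 were lower, 6 beyond counting error, where 47.7% and 6.1% of all genes were. Of the others 1, Rbm39, was higher beyond it, and the list median was -0.09. Leng8 stood at 9.00 FPKM in KO and 25.2 FPKM in control retina (-1.39), and the RNA helicase gene Ddx17 at 49.2 FPKM and 88.4 FPKM (-0.83). Luc7l3 was lower by value at 16.1 FPKM and 24.9 FPKM (-0.60), as were the kinase genes Clk1 (14.4 FPKM and 18.9 FPKM) and Clk2 (7.88 FPKM and 11.1 FPKM). The related Ddx5, at 386 FPKM and 383 FPKM, and Luc7l2, at 53.5 FPKM and 51.1 FPKM, had overlapping bounds.

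These RNAs were also lower at P14, in other libraries. There 14 of 14 noncoding RNA genes stood lower, 11 beyond counting error (median -0.61), where 49.2% and 8.25% of all genes were. Meg3 stood at 8.50 FPKM in KO and 31.5 FPKM in control retina and Snhg11 at 6.31 FPKM and 27.4 FPKM. Of the 126 genes at least 1.5-fold apart at P7, 104 were also compared at P14. At P14 1.02% of all genes were at least 1.5-fold lower, 0.453% higher and 1.48% either. At both ages 18 genes were at least 1.5-fold lower and 0 at least 1.5-fold higher. The 18 held Fezf2, Meg3, Snhg11, Miat, A930011O12Rik, 6720401G13Rik, Leng8 and Gsg1, the last at 14.0 FPKM and 39.0 FPKM at P7 (-1.42). They also held Xist, which is made from the inactive X chromosome of females, at 15.6 FPKM in KO and 27.5 FPKM in control retina at P7 (-0.78). Of the Y-linked genes Kdm5d was listed at 0 in both P7 libraries, and Ddx3y stood at 0.36 FPKM and 0.304 FPKM. The sex of the animals is not given, and its part in other differences was not tested.

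Some of the largest differences fell on genes with near-identical copies or overlapping neighbours, whose reads the authors' counting could split either way, and these are uncertain. Amd1 stood at 0.0244 FPKM in KO and 6.23 FPKM in control retina, Rps27 at 6.06 FPKM and 26.8 FPKM, Rpl26 at 17.9 FPKM and 4.26 FPKM, and the globin gene Hba-a2 at 22.8 FPKM and 0.0201 FPKM. Its copy Hba-a1 stood at 232 FPKM and 216 FPKM. Atp6v0c-ps2 (99.2 FPKM and 302 FPKM) overlaps Atp6v0c (562 FPKM and 340 FPKM), and their sums were 662 FPKM in KO and 643 FPKM in control retina. Outside copies and the lists, Klhl33 was higher at 6.34 FPKM and 1.19 FPKM (1.75), the zinc-finger gene Tshz2 at 10.9 FPKM and 5.45 FPKM (0.88), and the folate receptor gene Folr1 at 4.44 FPKM and 1.90 FPKM (0.91). Cdk5rap1 was lower at 1.57 FPKM and 6.71 FPKM (-1.58).

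Genes on chromosome 14, which carries Fezf2, differed beyond counting error more often than those of any other chromosome at P7. This share was examined after the values were seen. It was 90 of 445 genes (20.2%) on chromosome 14 and 1613 of 12223 (13.2%) on all others, with chromosome 13 next at 16.7%. Both directions were present, with 50 genes higher and 40 lower. After rescaling the shares were 17.6% and 12.2%. The stretch of 10 to 20 Mb (mm9) that holds Fezf2 had 11 of 22 genes beyond counting error, or 10 of 21 without Fezf2 (47.6%), and the rest of the chromosome 18.7%. At P14 the stretch had 10 of 22 (45.5%), and chromosome 14 as a whole 19.8%, below the X chromosome at 21.3%.

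The differences in this stretch were mostly small. Il3ra, a receptor subunit gene for interleukin-3, was higher in the KO at 3.20 FPKM and 1.33 FPKM (0.85). Cadps, a regulator of dense-core vesicle release, was lower at 33.5 FPKM and 37.9 FPKM (-0.17). Synpr, a synaptic vesicle protein gene within 1 Mb of Fezf2, was higher at 47.6 FPKM and 41.7 FPKM (0.19), but at P14 lower at 110 FPKM and 151 FPKM (-0.45). Ptprg, a receptor phosphatase gene on the other side of Fezf2, was lower at 10.7 FPKM and 11.9 FPKM (-0.14). Of the 8 genes in the stretch that were beyond counting error at both ages, 5 had the same direction and 3 the opposite. Of 10 genes on chromosome 14 at least 1.5-fold apart at P7, A930011O12Rik, Gm10391, Gm10394, Klhl33, 3632451O06Rik, Bmp4, Plac9 and Lrtm1 lay outside this stretch.

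**Figure D5:**
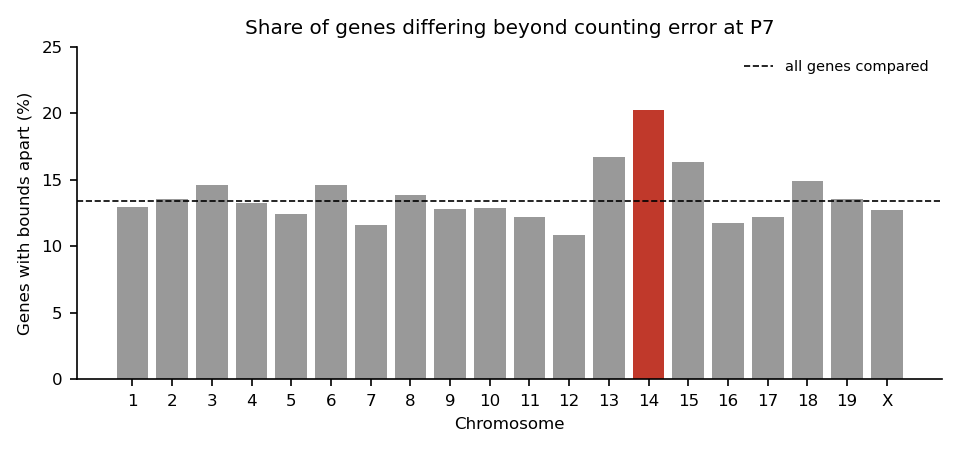
Bars give the percentage of genes compared on each chromosome whose bounds do not overlap between KO and control at P7, starting at 0. Chromosome 14 (red) stands at 20.2%, and the dashed line marks 13.4% over all genes.

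Genes that Fezf2 is known to act with in deep cortical layers, and pathways of metabolism and cell death, had medians near 0. Members beyond counting error stood on both sides, except in the cholesterol list, where the 1 such gene was lower. The share of all genes beyond counting error was 13.4%. Of 12 deep-layer cortical genes compared from 14 listed, 2 were higher and 2 lower beyond counting error (median 0.02, which turned to -0.01 on rescaling). Sox5, a factor of deep-layer neurons, stood at 2.84 FPKM in KO and 2.12 FPKM in control retina (0.30), and the cofactor gene Ldb2 at 7.14 FPKM and 8.82 FPKM (-0.27). Bcl11b, which acts downstream of Fezf2 in cortex, was under 1 FPKM in both libraries. Of 20 glycolysis genes 3 were higher and 3 lower beyond counting error, which became 0 and 6 on rescaling. Of 17 cholesterol synthesis genes 14 were lower (median -0.06), where 47.7% of all genes were. Only Fdft1, the squalene synthase, was beyond counting error, at 11.5 FPKM and 14.0 FPKM (-0.27). Of 16 apoptosis genes 1 was higher and 2 lower beyond counting error. Cdkn1a, a cell cycle inhibitor, stood at 20.2 FPKM and 16.5 FPKM (0.28), Bmf at 10.1 FPKM and 13.3 FPKM (-0.36) and Apaf1, the apoptosome scaffold, at 1.74 FPKM and 2.53 FPKM (-0.37).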

How the data were processed

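RNA of whole retina was reverse-transcribed with random primers and read as 36-base single ends, per the labels' protocols. These name neither a strand-marking step nor a choice of polyadenylated RNA. The authors deposited FPKM values on the mm9 build, and the submitters' processing notes name Cufflinks 2.1.1, TopHat2 2.0.8b and CASAVA 1.8.2. Which annotation and options they used is not given in the sources used. Per the file headers, every FPKM comes with a confidence interval and a status. In the P7 libraries the level exceeded its own upper bound at 2080 (KO) and 2176 (control) loci, so levels were never set against bounds.

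Loci of 1 symbol were summed (251 symbols), values with a failed status (7 and 8 loci at P7) were left out wherever they would enter, and 740 symbols of small RNAs or of loci shorter than 300 bases were set aside (9.42% and 10.7% of the summed FPKM). Read counts are not in these tables. Taken as 2 standard deviations of counting error on each side, the bounds would imply about 11600000 fragments in the KO and 11900000 in the control at P7. The median half-width was 14.5% and 14.2% of the level at 1 to 10 FPKM and 6.37% and 6.29% from 10 FPKM. Since PCR reads lacking molecular identifiers are not independent, the bounds hold counting error only. Log2 differences used a pseudocount of 1 FPKM, in Python 3.11.15 with numpy 2.4.6 and pandas 2.3.3. The counting steps were tested on simulated data. A list is described by its counts and its median.

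The members, the 43 gene lists and the rules were chosen with earlier results of these data known. Genes named are Fezf2 and Fezf1, the 15 highest and 15 lowest differences at 2 FPKM or more with bounds apart (without small RNAs, short or multiple loci and sex-linked genes), the bipolar lists, up to 6 members of each other list with bounds apart and those that set its range, genes within 1 Mb of Fezf2 and those at the 2-fold line. Any other gene named was chosen after its values were seen. Some members of the lists are counted but not reported here by name. Promoters were matched by symbol to a RefSeq table. The alternatives were a pseudocount of 0.1 FPKM, a filter of 5 FPKM or none, rescaling to 1000000, centring on the median, and small RNAs kept.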

Additional observations from a re-analysis of the deposited data

Results flagged for a closer look

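Of the genes at least 1.5-fold apart at both ages, 15 differed in opposite directions at P7 and P14, ages that share no library. The difference between the ages was not tested, since there is 1 library per genotype and age. Higher in the KO at P7 and lower at P14 were 12 genes. Among vitreous and stromal matrix genes, the log2 difference was 2.28 at P7 and -2.96 at P14 for Optc, 0.78 and -0.74 for Col18a1, 0.73 and -2.04 for Fbln1, and 0.67 and -1.97 for Mfap4. Among crystallins it was 2.27 and -2.38 for Cryaa, 0.90 and -1.49 for Cryba1, and 0.70 and -1.10 for Cryba4, whose bounds overlapped at P7. Rab38, which acts in pigment granule formation, had 0.79 and -1.06, the claudin gene Cldn19 had 0.97 and -0.99, and Fam129a had 0.96 and -0.67. Crhbp had 1.21 and -1.16. The globin gene Hba-a2, uncertain because of its copy, had 4.54 and -5.33. Cryaa, Cryba1, Cryba4, Cldn19, Fbln1, Rab38 and Hba-a2 were under 1 FPKM in the P7 control and in the P14 KO. These genes passed each filter only through the library where they were high, so they could only come out in these directions. Fam129a was under 1 FPKM in the P7 control and Mfap4 in the P14 KO. Optc, Col18a1 and Crhbp reached 1 FPKM in every library.

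Lower at P7 and higher at P14 were 3 genes. Rps27, a ribosomal protein gene with copies in the genome, had -1.98 and 2.1, Cdk5rap1 had -1.58 and 0.66, and D4Wsu53e had -1.18 and 0.61.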

How the results depend on the processing

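No paired analysis was possible because each group has 1 library and the labels give no replicate numbers, and for the same reason no library could be left out. The counts past a fixed fold moved most. With a pseudocount of 0.1 FPKM, 43 genes were 2-fold higher and 51 lower at P7, and 106 and 196 were 1.5-fold higher and lower. With a filter of 5 FPKM, which tests fewer genes, 8 were 2-fold higher, and 17 and 38 were 1.5-fold higher and lower. With rescaling to 1000000, after which 14160 genes passed 1 unit, the counts were 46 and 62 at 2-fold and 124 and 258 at 1.5-fold, and 515 higher and 1239 lower beyond counting error. With small RNAs kept they were 54 and 98 at 2-fold and 93 and 161 at 1.5-fold.

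Of the list medians at both ages, 389 values under alternatives stayed within a tolerance, 10 moved and 1 reversed. The tolerance was the members' median of the half-widths of the bounds, summed over both libraries. It is wider than the counting error of a difference. The lens median at P7 was 1.5 with a pseudocount of 0.1. At P14 it was -1.13 with that pseudocount, -1.23 on rescaling and 0.10, reversed, with a filter of 5 FPKM. Also at P14, the rod phototransduction median was 0.0092 on rescaling. Without a filter the P14 medians were -0.29 for vitreous and ciliary, -1.45 for erythroid and -0.37 for noncoding RNA genes. With a filter of 5 FPKM they were 0.96 for immediate early and -0.30 for noncoding RNA genes, and with the pseudocount of 0.1 the latter was -0.81. The cause was not tested. Of 40 list medians at P7, 13 turned sign under some alternative, all of them within 0.031 of 0 as reported. Of the values of single named genes under alternatives, 1886 stayed within a tolerance, 76 moved and 0 reversed. The tolerance was the gene's half-widths summed over both libraries. Only a gene with bounds apart could be called reversed, so the 0 says little about stability. A lone library per group leaves the spread between mice unknown, so a difference beyond counting error may be no larger than that spread.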
